A study of Mus musculus with 2 samples.

Results

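Genes of the potassium (Kcn), sodium (Scn), calcium (Cacn) and hyperpolarization-activated (Hcn) channel families were examined in a map of POU3F1 binding in mouse retina. The members were the genes of the deposited gene table whose symbols begin with Kcn or Cacn, with Hcn and a digit, or consist of Scn, digits and the letter a or b. They numbered 27 of the 2323 genes in the table, and with 111 further genes of the same symbols that had no row they made up 138 protein-coding channel genes. CUT&RUN, in which an antibody directs a nuclease to its target and the released fragments are sequenced, was carried out on retina of wild-type (WT) CD1 embryos at embryonic day 14. There was 1 library with an antibody against POU3F1, a POU-domain transcription factor, and 1 with rabbit IgG. The retina was whole ("Retinal cells" in the labels), so the cell type behind a peak is not known. Of 5 markers of retinal ganglion cells and their precursors, the genes Pou4f1 (4 peaks), Pou4f2 (2), Isl1 (9) and Atoh7 (1) had assigned peaks and Rbpms had none, but a peak list gives no expression and cannot check the labelled tissue.

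Voltage-gated channels open in response to a change in membrane potential and carry the currents that start, shape and end action potentials. Sodium channels carry the rising phase, potassium channels repolarize the cell and set its firing pattern, calcium channels link firing to transmitter release and gene expression, and HCN channels open on hyperpolarization. Retinal ganglion cells are the only retinal neurons that send action potentials down the optic nerve, and their channel set changes as they mature. The group is wider than the term voltage-gated channel: by symbol, 64 of the 138 genes were counted as pore-forming voltage-gated subunits. The other 74 were auxiliary subunits, calcium- and sodium-activated potassium channels, inward rectifiers (Kcnj) and the K2P leak channels with tandem pore domains (Kcnk). This split by family name is coarse: the pore gene Kcnma1 falls among the 74, and Scn7a and the Kv modifier subunits fall among the 64.

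Sequence was at hand for 3 of the peaks assigned to channel genes, because they overlap a promoter window, 250 bases before to 50 after a RefSeq start site (GRCm38.p6, the assembly called mm10). They are shown here because these are the only letters that can be read under a channel gene's peak. The window of Kcnt2, a sodium-activated potassium channel gene, is chr1:140245468-140245767 on the plus strand, and capitals mark the 155 bases that lie under its peak.

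Kcnt2: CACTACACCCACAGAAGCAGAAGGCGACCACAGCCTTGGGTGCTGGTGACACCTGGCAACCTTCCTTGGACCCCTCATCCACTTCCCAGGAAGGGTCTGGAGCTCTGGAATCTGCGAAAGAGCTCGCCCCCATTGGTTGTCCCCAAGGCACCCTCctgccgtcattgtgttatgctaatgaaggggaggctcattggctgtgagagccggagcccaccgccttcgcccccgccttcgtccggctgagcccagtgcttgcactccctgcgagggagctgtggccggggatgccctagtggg

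The other windows belong to non-coding RNA genes and lie wholly inside a peak. That of Gm8541 (chr2:63575239-63575538, minus strand) is under a peak assigned to Kcnh7, and that of Gm34739 (chr2:65415306-65415605, minus strand) is under the peak assigned to Scn3a. In these, capitals mark matches to the letter patterns searched.

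Gm8541: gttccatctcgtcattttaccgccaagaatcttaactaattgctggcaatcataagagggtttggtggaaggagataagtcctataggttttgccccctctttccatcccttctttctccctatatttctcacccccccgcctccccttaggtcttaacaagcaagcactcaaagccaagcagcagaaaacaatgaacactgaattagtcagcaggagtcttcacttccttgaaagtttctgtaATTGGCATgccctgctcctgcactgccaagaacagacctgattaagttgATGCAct

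Gm34739: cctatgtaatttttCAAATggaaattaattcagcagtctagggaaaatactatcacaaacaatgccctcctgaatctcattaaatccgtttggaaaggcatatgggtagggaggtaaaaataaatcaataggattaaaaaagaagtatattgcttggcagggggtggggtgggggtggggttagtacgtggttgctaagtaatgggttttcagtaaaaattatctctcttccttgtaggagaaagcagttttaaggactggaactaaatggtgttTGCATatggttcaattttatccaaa

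POU proteins bind the octamer ATGCAAAT and variants of it, so this octamer and its parts ATGCA and CAAAT were searched on both strands. None of the 3 windows held the octamer. The pattern ATGCNAAT, which includes the octamer and was chosen after the sequences were seen, was present once in the Gm8541 window at positions 245 to 252 on the strand opposite to the printed one, and ATGCA at 294 to 298. The same pattern was present in the Kcnt2 window at positions 172 to 179 as ATGCTAAT, outside the bases under the peak. It occurs in 3.18% of 32544 promoter windows of this length, and ATGCTAAT in 0.928%. The Gm34739 window held ATGCA once, at 276 to 280 on the opposite strand, and CAAAT once, at 15 to 19. The short patterns are common: ATGCA occurs in 32.5% and CAAAT in 37.4% of all windows. Of the 27 channel genes, 22 had RefSeq windows, 32 in all. Of those, 0 held ATGCAAAT, against 1.75% of all promoter windows, while 12 held ATGCA and 12 held CAAAT. At 1.75%, 32 windows are too few for a count of 0 to tell anything. Only 1 of the 32, that of Kcnt2, overlapped a peak, and some windows of Kcnc2 overlap one another and count the same matches again. Kcnab3, Kcnq1, Kcnq3, Kcns2 and Scn3a had no entry. A match is a description of letters, not of a binding site.

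An assigned peak was present for 27 of the 138 channel genes, 19.6% (95% exact binomial interval 13.3 to 27.2%), against 10.2% of all 21887 protein-coding genes. By family, these were 19 of 94 potassium channel genes (20.2%, 12.6 to 29.8%), 4 of 14 sodium channel genes (28.6%, 8.39 to 58.1%), 4 of 26 calcium channel genes (15.4%, 4.36 to 34.9%) and 0 of 4 HCN genes (interval up to 60.2%). The intervals of all 4 families overlap one another, and the differences between families were not tested. There was 1 peak list from 1 library, so no value has a replicate check, and intervals cover counting error only.

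**Figure D1:**
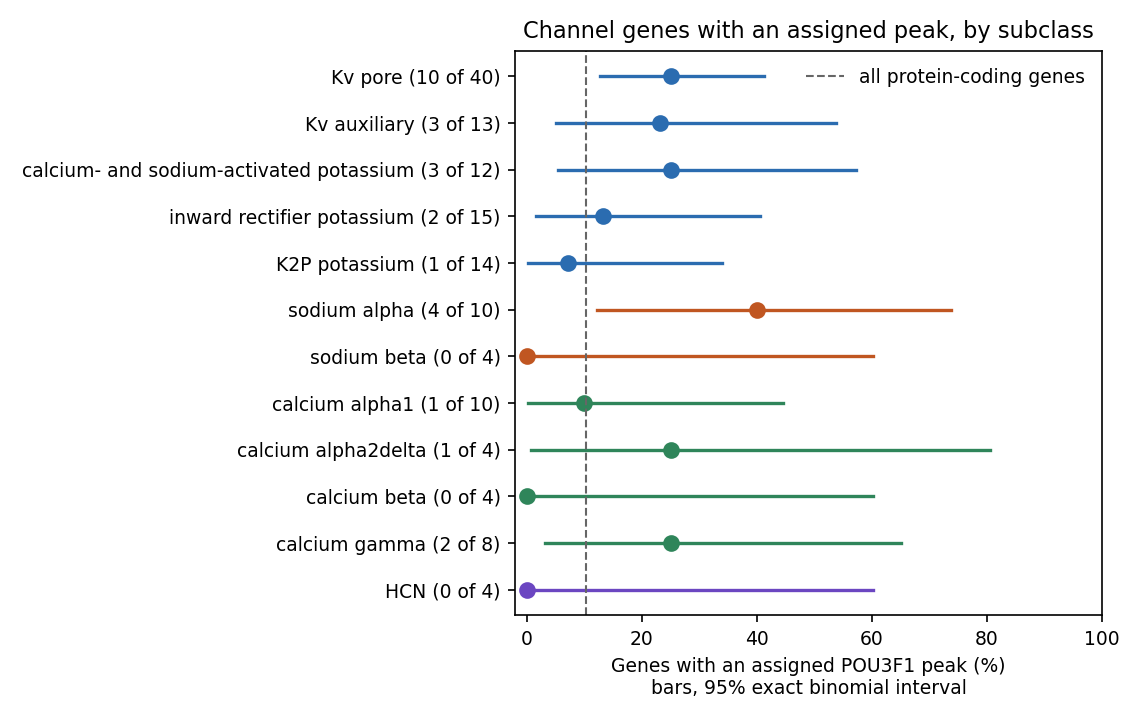
Share of genes with an assigned POU3F1 peak in each channel subclass (points, with 95% exact binomial intervals), and the share of all protein-coding genes (dashed line, 10.2%). Subclasses hold 4 to 40 genes, and their intervals are wide and treat genes as independent. Those of sodium alpha (4 of 10, on 3 peaks) and Kv pore (10 of 40) lie wholly above the dashed line. The line is not matched for locus length (defined below), which had medians of 225 kb (sodium alpha), 186 kb (Kv pore) and 68.8 kb (all protein-coding genes).

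Channel genes tend to be long and to stand in wide loci, and peaks were assigned by distance, so locus length was set beside the counts. Locus length was taken as the gene body plus the gap to the next protein-coding gene on either side, each gap counted up to 1 Mb. The median locus was 157 kb for channel genes and 68.8 kb for all protein-coding genes. Protein-coding genes were divided into 4 equal classes by locus length. In the widest class (171 to 3960 kb), 25 of 68 channel genes had a peak (36.8%) against 26.8% of all genes there. Within that class the median locus was still wider for channel genes, 427 kb against 369 kb. In the other classes, from narrow to wide, 1 of 21, 0 of 17 and 1 of 32 channel genes had a peak, against 194 of 5472, 164 of 5473 and 404 of 5470 of all genes. The members outside the widest class were Kcnab3 (17.5 kb) and Cacng5 (139 kb). The part of locus length in the share of 19.6% was not tested.

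**Figure D2:**
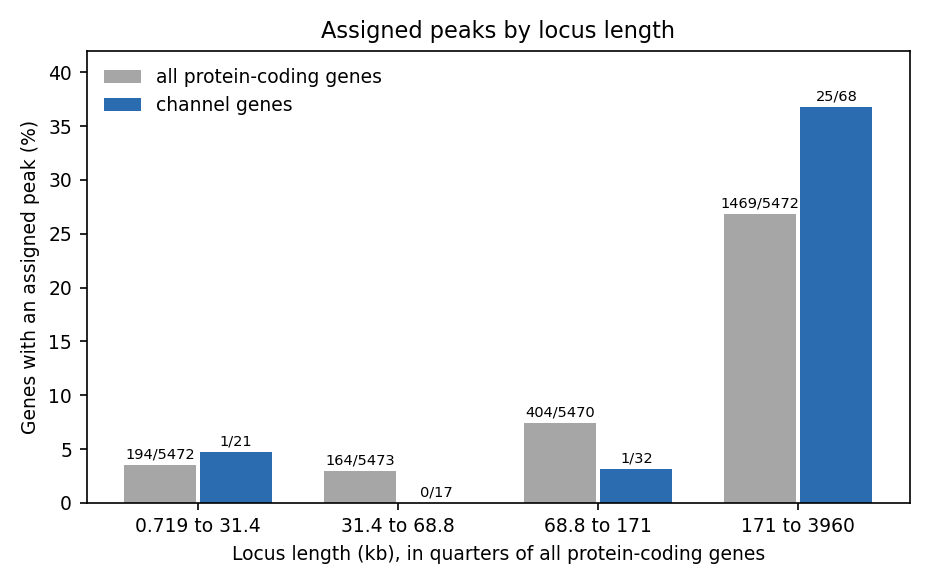
Share of genes with an assigned peak in each of 4 classes of locus length, for all protein-coding genes (grey) and channel genes (blue), with counts above the bars; the bars have no error bars. Of the 27 channel genes with a peak, 25 are in the widest class.

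Most of these peaks were far from the start of the channel gene, as were most assigned peaks of all genes. The 27 genes had 42 gene-peak pairs on 41 different peaks, and 30 pairs (71.4%) lay 50 to 500 kb from the transcription start site (TSS), against 60.7% of all 4427 pairs in the table. Within 5 kb of the TSS lay 4 pairs (9.52%, all pairs 8.92%). Another 4 lay at 5 to 50 kb (9.52%, all pairs 14.9%) and 4 beyond 500 kb (9.52%, all pairs 15.6%). The median distance was 150901 bp, against 160795 bp over all pairs. Downstream of the TSS lay 27 pairs (64.3%, all genes 57.3%), and 19 of the 42 (45.2%) lay in the body of the channel gene itself, against 28.3% of the 4233 placed pairs of all protein-coding genes. Of the pairs, 35 (83.3%) involved a peak that was also assigned to another gene, as did 82.8% of all placed pairs. The channel gene had the nearest TSS in 27 pairs (64.3%), against 58.4% of all placed pairs, and another gene was nearer in 15.

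**Figure D3:**
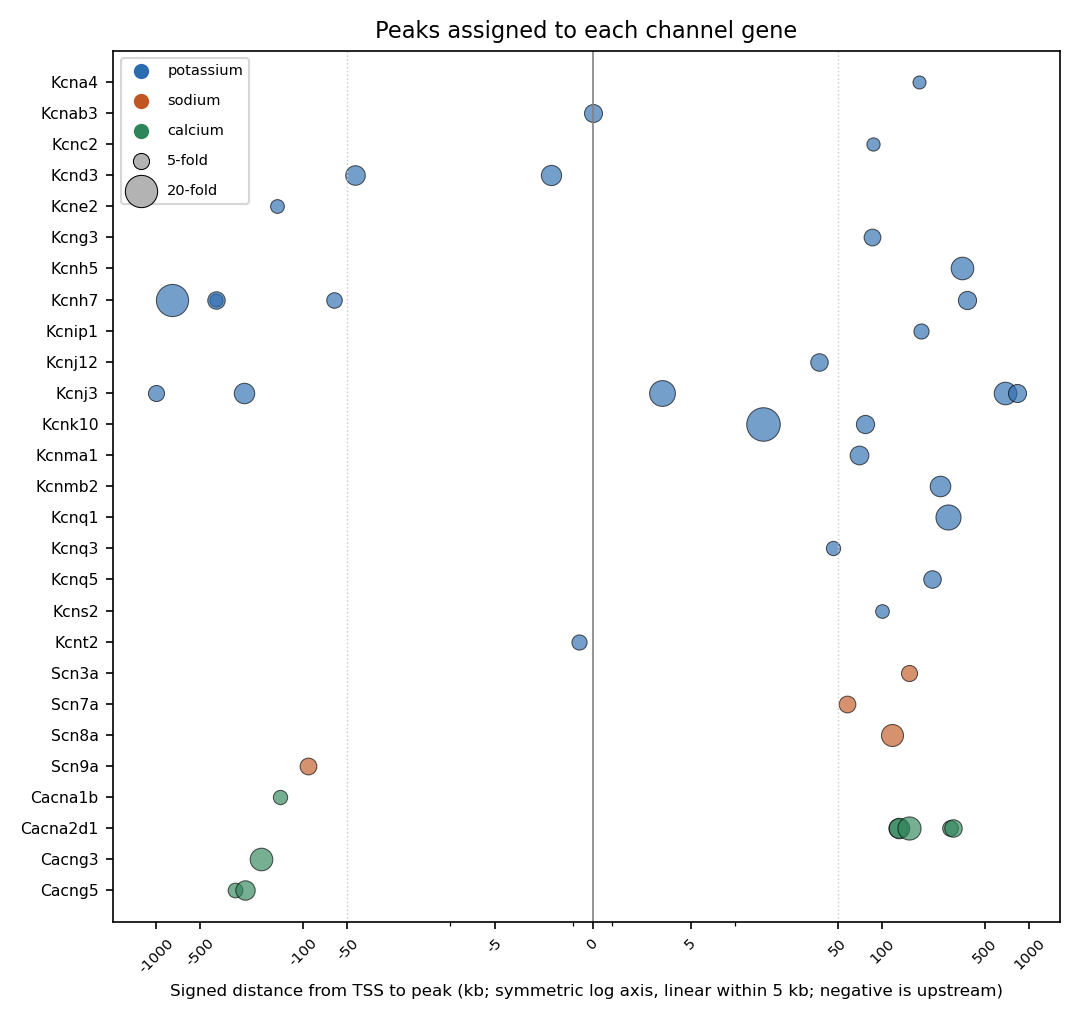
Signed distance from the TSS to each assigned peak (kb, symmetric log axis) for the 27 channel genes, coloured by family; point area is proportional to the authors' fold enrichment, and dotted lines mark 50 kb. Points within 50 kb belong to potassium channel genes only, and all sodium and calcium channel peaks lie farther out.

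Peak by peak, enrichment near channel genes was close to that of all assigned peaks, with a median fold of 6.22 over 41 peaks against 6.39 over 2505. Folds are the authors' values, the fragments at a peak's summit over the local background, with 1 added to both. The lowest background over all peaks was 1.04, and 12 of the 42 channel pairs had it. Among these were the strongest peaks of Kcnk10, Kcnj3, Cacna2d1, Kcnh5 and Scn8a. Order by fold therefore differs from order by fragments: Kcnk10 (21.6-fold) had 43, and Kcnq1 (12.1-fold, background 4.11) had 61. The strongest peak of a channel gene had a median fold of 5.90 (quartiles 4.42 and 9.57, 95% order-statistic interval of the median 4.42 to 9.33), and that of all genes with a row had one of 7.34 (quartiles 5.40 and 10.6). Of the channel genes, 21 (77.8%) had a single peak, against 62.0% of all genes, and a gene with more peaks has more chances of a strong one. The summit pileup, the number of fragments over the summit, had a median of 17 over the 41 peaks (all assigned peaks 19). It was under 20 for 25 of them (61.0%, all assigned peaks 52.2%). A peak of at least 10-fold was assigned to 5 channel genes, 3.62% of 138, against 2.78% of all protein-coding genes: Kcnk10, Kcnh7, Kcnj3, Kcnq1 and Cacna2d1. Among genes with a peak the order was the other way, 18.5% of channel genes against 27.3% of all genes.

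**Figure D4:**
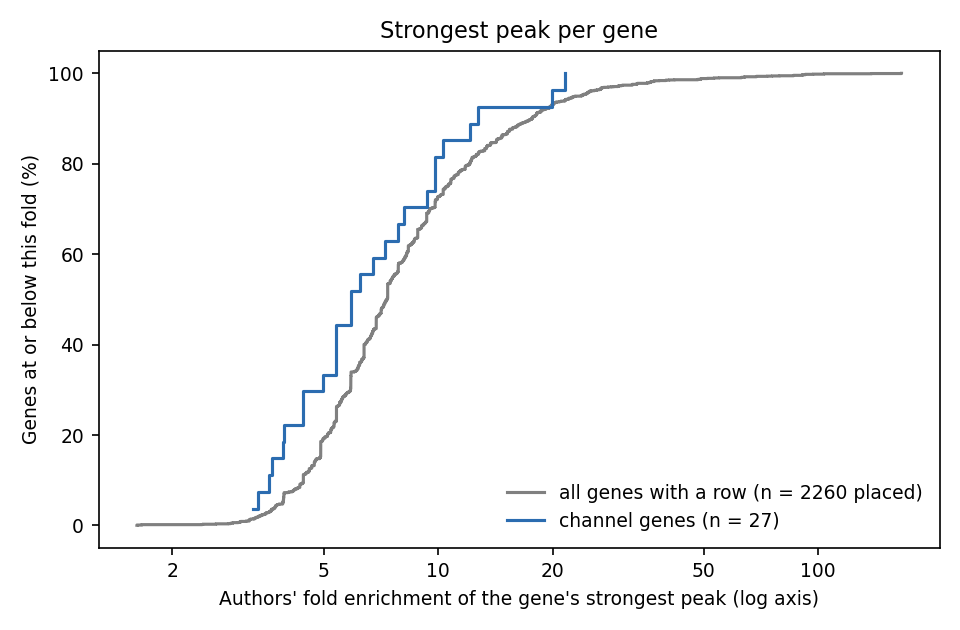
Cumulative share of genes (vertical axis, %) by the authors' fold of their strongest peak (log axis), for 27 channel genes and 2260 genes whose peaks could be placed. The channel curve lies to the left of the other over most of its range, with medians of 5.90 and 7.34.

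Peaks close to a start site were found only among potassium channel genes. A distance of at most 5 kb was met by 4 channel genes (2.90% of 138) and by 1.40% of all protein-coding genes. Within 50 kb there were 7 (5.07%), against 3.67% of all genes. Those 7 were Kcnab3, Kcnd3, Kcnj3, Kcnt2, Kcnj12, Kcnk10 and Kcnq3, and no sodium, calcium or HCN gene had a peak in that range. With 14, 26 and 4 genes in those families, the counts of 0 leave wide limits.

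The promoter of Kcnab3, which encodes a cytoplasmic beta subunit that modifies Kv channels, had a peak of 6.22-fold at chromosome 11: 69325988 to 69326538, with 18 fragments at the summit. Its midpoint was 5 bp downstream of the TSS, the closest of all 42 pairs, and it was also assigned to Cntrob, 2488 bp upstream of that gene's TSS. Kcnab3 has a short body of 6784 bp, in the narrowest class of loci.

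The peak at the promoter of Kcnt2, whose sequence is given above, was weak. It spanned 200 bp at chromosome 1: 140245423 to 140245622, with 4.42-fold and 8 fragments, and its −log10 q-value was 2.34. The gene table places it 673 bp upstream of the TSS. That TSS lies 477 bp downstream of the nearest RefSeq start, around which the printed window is drawn. No other gene was assigned to it.

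Kcnd3 encodes a pore subunit of the A-type potassium current, which delays the first spike. A peak of 7.86-fold and 23 fragments lay 2130 bp upstream of its TSS, at chromosome 3: 105450802 to 105451110, inside the antisense-named non-coding gene Kcnd3os. Its other peak, 44664 bp upstream, had a like fold (7.37) on a higher local background and the largest pileup of any channel gene's peak, 67 fragments. Both lay nearer to Kcnd3 than to any other assigned gene.

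Kcnj3 encodes a subunit of the G protein-gated inward rectifiers, which neurotransmitters open to quiet a neuron. It had 5 peaks. The strongest was inside the gene, 3551 bp downstream of the TSS (12.8-fold, chromosome 2: 55439360 to 55439682, 25 fragments), and was assigned to Kcnj3 alone. The others lay 992895 bp upstream (4.98-fold), 253244 bp upstream (8.02-fold), 683716 bp downstream (9.79-fold) and 821669 bp downstream (6.29-fold). The most distant upstream peak lay in Galnt13, 6688 bp from that gene's TSS, and is therefore far closer to Galnt13. Both distant downstream peaks were also assigned to Nr4a2, at 995352 and 857399 bp.

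The strongest peak of any channel gene by fold was in Kcnk10, a K2P channel gene whose product carries a leak current sensitive to stretch and temperature. It had 21.6-fold and 43 fragments at chromosome 12: 98562605 to 98563085, 15465 bp downstream of the TSS, and ranked 99 among all 2652 peaks by fold. A second peak in the gene body, 76464 bp downstream, had 6.39-fold and 12 fragments. Gpr65 was assigned to both as well, from 294210 and 233211 bp. Among 14 K2P genes, only Kcnk10 had a peak (7.14%, exact binomial interval 0.181 to 33.9%, all protein-coding genes 10.2%).

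Kcnh7, an ether-a-go-go-related channel gene, had 5 peaks. The strongest (19.9-fold, 53 fragments, chromosome 2: 63962961 to 63964218) was 1258 bp long, ranked 118 among all peaks, and lay 779311 bp upstream, whereas Fign was nearer at 134423 bp. A neighbouring pair lay at 63574145 to 63574460 (5.86-fold, 56 fragments) and 63575173 to 63575567 (3.33-fold, 16 fragments), where the Gm8541 window is. The fourth was 61924 bp upstream (4.65-fold). The only peak inside the gene, 376540 bp downstream, had 6.39-fold and 12 fragments, and the TSS of Gca was nearer to it.

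**Figure D5:**
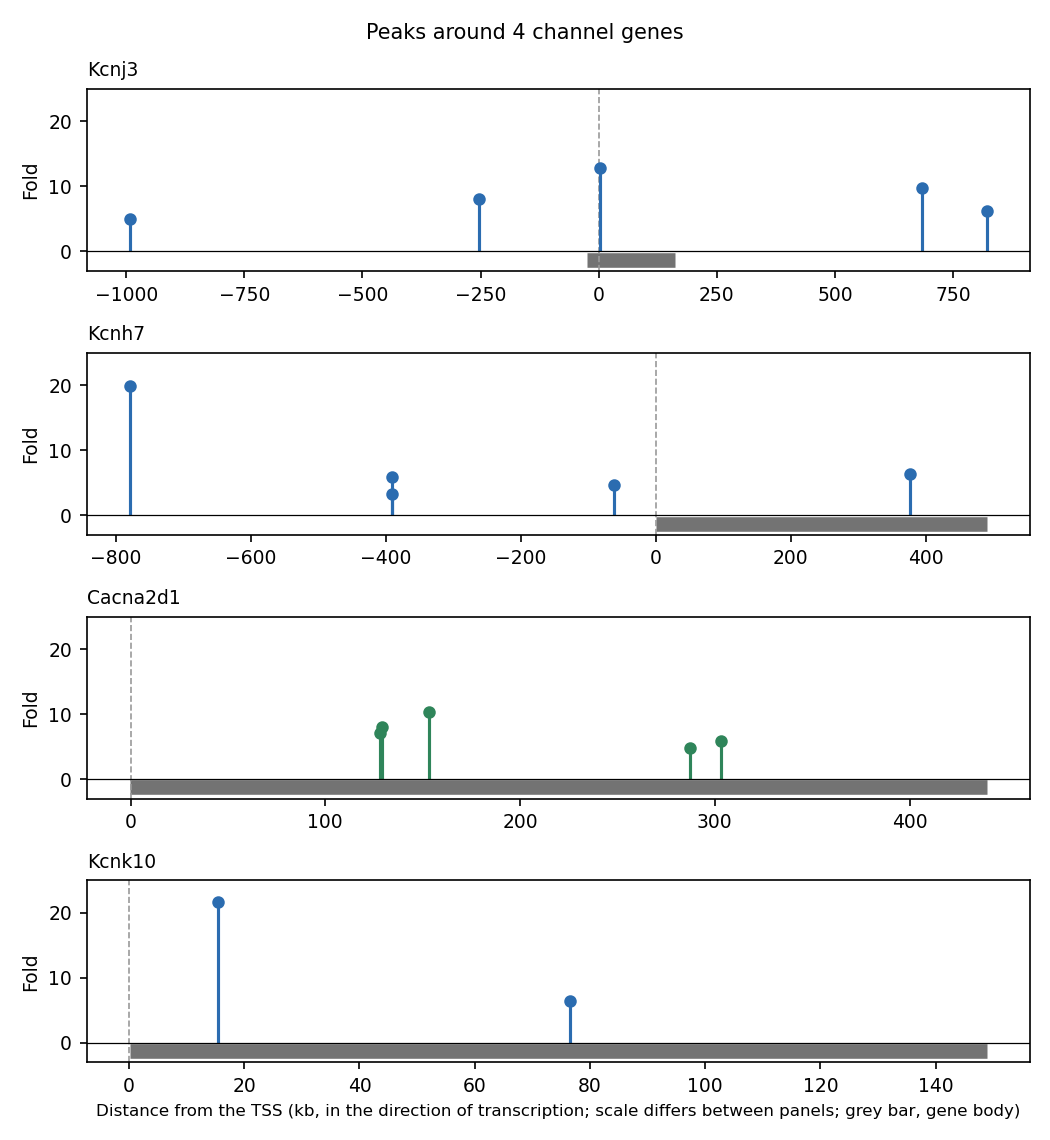
Authors' fold of each assigned peak against distance from the TSS (kb, along the direction of transcription) at Kcnj3, Kcnh7, Cacna2d1 and Kcnk10; grey bars are gene bodies, and distance scales differ between panels. All peaks of Cacna2d1 and Kcnk10 are inside the gene, whereas 1 of 5 is at Kcnj3 and at Kcnh7.

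In all, 10 of 40 Kv pore genes had a peak (95% exact interval 12.7 to 41.2%), and after that of Kcnh7 the strongest was in Kcnq1. Kcnq1 encodes a slowly activating channel of heart and inner ear and lies in an imprinted domain. Its peak (12.1-fold, 61 fragments, chromosome 7: 143388996 to 143389308) was 281898 bp inside the gene, and Cdkn1c was nearer at 71844 bp. Kcnh5, an ether-a-go-go channel gene, had a peak of 9.82-fold lying 351480 bp downstream of its TSS and beyond the end of the gene. Kcnq5 (5.90-fold, 216593 bp) and Kcnq3 (3.92-fold, 46657 bp), whose products form the M current that restrains repetitive firing, each had 1 peak in the gene body, of 14 and 13 fragments.

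The remaining Kv pore genes had weak single peaks. Kcng3, a modifier subunit that is silent by itself, had 5.40-fold 85389 bp downstream, with Cox7a2l nearer. Kcns2, another modifier subunit, had 3.60-fold 99672 bp downstream, in the body of Stk3. Kcnc2, a channel gene of fast-spiking neurons, had 3.36-fold 87243 bp into the gene, and Kcna4, which encodes an inactivating Kv channel, had 3.26-fold 178376 bp downstream, the lowest fold of any channel gene's strongest peak. Kcns2, Kcnc2 and Kcna4 had no peak with a q-value under 0.01.

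Of the Kv auxiliary genes, 3 of 13 had a peak (23.1%, all protein-coding genes 10.2%). Besides Kcnab3 these were Kcnip1, a calcium sensor that binds Kv channels, with 4.42-fold and 8 fragments 183932 bp inside the gene. The third was Kcne2, a single-pass accessory subunit gene, with 3.65-fold 149688 bp upstream, where Slc5a3 was nearer. Of the calcium- and sodium-activated potassium channel genes, 3 of 12 had one. Kcnmb2, a beta subunit of the large-conductance BK channel, had 8.15-fold 247415 bp inside its gene, where Zmat3 was nearer at 215560 bp. Kcnma1, the BK pore gene, had 6.74-fold 69091 bp inside its gene, and Kcnt2 was the third. Of 15 inward rectifier genes, 2 had a peak (13.3%): Kcnj3, and Kcnj12, at 36977 bp downstream (5.90-fold), where Tnfrsf13b was nearer at 23974 bp.

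Sodium channel peaks were all 50 to 500 kb from the TSS and none reached 10-fold. All 4 genes were pore-forming alpha genes (4 of 10, 95% exact interval 12.2 to 73.8%, all protein-coding genes 10.2%). None of the 4 beta genes had a peak (interval up to 60.2%). The median locus was 225 kb for alpha and 36.4 kb for beta genes, and the difference between them was not tested. Scn8a, whose product is the main sodium channel of mature axon initial segments and nodes, had the strongest: 9.33-fold, 18 fragments, chromosome 15: 100986861 to 100987428, in the gene 116461 bp downstream of the TSS. Fignl2 was nearer to it at 91423 bp. Scn3a, a sodium channel gene used in embryonic neurons, had 4.98-fold and 13 fragments at chromosome 2: 65415231 to 65415796, 152114 bp downstream of its TSS, and Slc38a11 was nearer at 51487 bp.

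Scn7a and Scn9a shared a single peak, so the 4 sodium channel genes rest on 3 peaks. It lay in the body of Scn7a, which encodes a sodium-sensing relative of these channels, at chromosome 2: 66726839 to 66727078 (5.40-fold, 10 fragments). It was 57956 bp downstream of the TSS of Scn7a and 92006 bp upstream of that of Scn9a, a channel gene of peripheral sensory neurons. These genes belong to a cluster of 5 sodium channel genes on chromosome 2. The other cluster members, Scn2a and Scn1a, had no assigned peak, and the peaks closest to their bodies were 163 and 280 kb away.

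Calcium channel genes with a peak were mostly auxiliary, but so is the family, in which 10 of 26 genes are pore-forming. Cacna2d1 encodes an alpha2delta subunit, which brings calcium channels to the membrane and acts in synapse formation. It had 5 peaks, all inside the gene on chromosome 5 and all nearer to it than to Hgf, the other gene assigned. The strongest was at 16087595 to 16088043 (10.3-fold, 20 fragments, 153031 bp downstream of the TSS). The others were at 128174 bp (7.08-fold), 129321 bp (8.07-fold), 287516 bp (4.72-fold) and 303420 bp (5.89-fold), with 11 to 17 fragments. No other alpha2delta gene had a peak (1 of 4).

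Of 10 pore-forming Cacna1 genes, 1 had a peak: Cacna1b, which encodes the N-type channel of presynaptic terminals. This peak (3.92-fold, 15 fragments) was 142677 bp upstream and inside Ehmt1, 13890 bp from the TSS of Ehmt1. The gamma genes Cacng3 and Cacng5, which encode proteins that also escort AMPA receptors, had peaks 192510 bp upstream (9.81-fold, 34 fragments) and 247228 bp (7.24-fold) and 289952 bp upstream (4.16-fold). Those 3 peaks lay in the bodies of Prkcb and Prkca. None of the 4 beta subunit genes had a peak (interval up to 60.2%).

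None of the 4 HCN genes had an assigned peak. The peak closest to the body of Hcn2 was 173 kb away, that closest to Hcn4 715 kb and that closest to Hcn3 2314 kb. Hcn2, Hcn3 and Hcn4 stand in loci of 24.1, 18.0 and 52.0 kb, classes in which 194 of 5472 (Hcn2, Hcn3) and 164 of 5473 genes (Hcn4) had a peak.

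The share of channel genes depends on how a peak is tied to a gene. Counting each peak only for the gene with the nearest TSS, 16 channel genes had a peak (11.6%), against 6.76% of all protein-coding genes: 14 potassium genes, Scn7a and Cacna2d1. Counting only peaks that overlap the gene body, 14 did (10.1%), against 3.70%; they were 11 potassium genes, Scn7a, Scn8a and Cacna2d1. Bodies were longer in channel genes, with a median of 42.6 kb against 17.2 kb.

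Genes that anchor or modify these channels but fall outside the symbol rule were listed as well: 33 genes, of which 31 were matched. Of these, 12 had a peak (38.7%, 21.8 to 57.8%), against 10.2% of all protein-coding genes, and 4 (12.9%) had one of at least 10-fold, against 2.78%. The genes were picked from general knowledge with earlier results of these data known, so these shares only describe the list. Loci of the matched genes were wide, with a median of 205 kb against 68.8 kb for all genes, and their median body was 91.3 kb against 17.2 kb. Fgf12, a cytosolic partner of sodium channels, had 15.1-fold 406296 bp upstream. Among the Stac genes, whose products bind calcium channels, Stac3 had a peak of 49.1-fold 7682 bp downstream, also assigned to Ndufa4l2, and Stac had one of 18.3-fold 433037 bp upstream. Nalcn, the sodium leak channel gene, had 11.4-fold 561948 bp downstream. These peaks of Fgf12, Stac and Nalcn were also assigned to Mb21d2, Arpp21 and Tmtc4, in that order. Like that of Stac3, they lay outside the body of the listed gene. Only Rem2, a small GTPase gene that restrains calcium channels (72 bp, 6.64-fold), and Stac2 (48 bp for the closer of 2 peaks) had a start site with a peak at most 5 kb away. Ank3, which organizes the axon initial segment, had none, whereas Ank2 had 3 (strongest 6.88-fold).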

How the data were processed

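POU3F1 and rabbit IgG CUT&RUN libraries of retina (1 each) were made by the authors; per the submitters' processing notes, Bowtie2, MACS2 and deepTools were used on mm10. The versions were not given in the sources used here. In the deposited peak list, 2652 intervals carry a fold enrichment (a ratio) and the −log10 p-value and q-value of the summit. The gene table gives signed distances and was made with GREAT 4.0.4 per the file headers (basal domain 5000 bp upstream and 1000 bp downstream, extension up to 1000000 bp). No IgG signal was used here, and library depth is unknown.

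Distances were placed on peaks by finding the TSS that put all distances of a gene on peak midpoints within 2 bp, nearest to a RefSeq start. This placed 4292 of 4427 pairs (97.0%) and all 42 channel pairs. For Scn8a another peak could be reached only from a TSS far from any RefSeq start. The table's genes matched RefSeq (GRCm38.p6) by symbol (2184) or synonym (86), and 53 did not. Summit pileups were recovered from fold and p-value for 2608 peaks. Python 3.11.15, scipy 1.17.1 and pandas 2.3.3 were used, and placement and recovery were tested on simulated data. No test was made, because 1 peak list has no replicates. Alternatives changed the distance, fold, q-value and assignment rules and the gene set. Every gene with a peak was named. Fuller values were given for genes with a peak within 5 kb, the 10 highest folds, the 5 genes with most peaks and the strongest of each subclass. Peak positions are printed for most of these genes, but not for all. Members and lists were chosen with earlier results of these data known. Values of some single channel genes are not reported here.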

Additional observations from a re-analysis of the deposited data

How the results depend on the processing

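Of 36 alternatives, 16 left a count within 1.5 times of its reported value, or the median within its interval, and 20 did not. A further 8 concern the HCN count, which is 0 and stayed 0. All of these but the gene-body rule only remove peaks, so under them it could not change. Limited to 50 kb from the TSS, 7 channel genes had a peak (7 potassium, 0 sodium, 0 calcium), and limited to 5 kb, 4 did (4 potassium, 0 sodium, 0 calcium). Peaks of at least 10-fold were assigned to 5 (4 potassium, 0 sodium, 1 calcium). With each peak given to its nearest TSS alone, 16 remained, with 1 sodium and 1 calcium gene. Peaks overlapping the gene body gave 14 (11 potassium, 2 sodium, 1 calcium). The genes counted by symbol as pore-forming voltage-gated subunits alone gave 15 of 64 (23.4%, against 10.2% of all protein-coding genes). Apart from the gene-body rule, which takes any peak that overlaps a gene, these settings count fewer peaks or genes by construction. At a q-value under 0.01 there were 24 channel genes (17.4%, against 9.99% of all protein-coding genes). Under 0.001 there were 21 (15.2%, against 9.59%). The median strongest fold ran from 5.88 to 7.24 over its 3 alternatives. A single library with 25 of 41 peaks under 20 fragments limits how far any single peak can be relied on.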

Other observations

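The peaks assigned to Cacng3 and Cacng5 lay in neighbouring genes that encode relatives of each other. The peak of Cacng3 (9.81-fold) was in the body of Prkcb, 188685 bp downstream of its TSS, and both peaks of Cacng5 (7.24-fold and 4.16-fold) were in the body of Prkca, 181645 and 138921 bp downstream. Prkcb and Prkca encode conventional protein kinase C isoforms. A looser pairing was that of Fign, to which the strongest peak of Kcnh7 (19.9-fold) was nearer, and its relative Fignl2, to which the peak in Scn8a (9.33-fold) was nearer. Here the peaks were not in the bodies of the relatives: the first lay in no protein-coding gene and the second in Scn8a itself. These pairings were noticed after the values were seen and were not tested.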
